A study of Homo sapiens with 3 samples.

Results

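The cytoplasmic ribosomal proteins are described here in THP-1, human monocytic leukemia cells with an MLL-AF9 fusion, at 3 time points of treatment with GSK-LSD1, an inhibitor of the histone demethylase LSD1. The members are 60 protein accessions of the RPL, RPLP, RPS and RPSA families, 38 of the large and 22 of the small ribosomal subunit, among 213543 features of the count table. They were chosen by accession and not by any measured value, though with earlier results of these data known. RNA-seq was performed on untreated cells (0 h) and on cells treated for 8 h or 24 h with 0.2 µM GSK-LSD1. The groups share the cell line and its culture medium with fetal calf serum, and ribosomal RNA was removed from the total RNA before the libraries were made. There is 1 library per time point, so no difference between time points has a replicate check. The libraries hold 1475938 (0 h), 1310912 (8 h) and 1444011 (24 h) counts.

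The ribosome translates messenger RNA into protein. Its small subunit holds the decoding site and its large subunit the peptidyl transferase centre, and each protein is incorporated as a single copy in most cases, with the acidic stalk proteins as the known exception. The proteins are made in the cytoplasm, imported into the nucleus and assembled with ribosomal RNA in the nucleolus. Their mRNAs are known for a 5′ terminal oligopyrimidine (TOP) sequence, a C followed by a stretch of C and U bases right at the cap, through which growth signalling by mTOR regulates their translation.

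That shared feature can be read from the start sites of the genes. RefSeq promoters (GRCh38.p14) matched 47 of the 60 members by symbol, with 60 promoters among them. Members with no entry in the table include RPL5, RPL7, RPL8, RPL23, RPL23A, RPL30, RPS2, RPS15A and RPS20. The windows below run from 10 bases before to 20 bases from the annotated start, 30 bases in all, on the coding strand. They are shown for the well-counted members with an entry and for RPL3, RPLP0 and RPS6, whose roles are described later. Where a gene has several starts, the one with the longest pyrimidine run was taken. Capitals mark the longest run of C and T in the window.
RPL14: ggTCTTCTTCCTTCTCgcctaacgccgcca
RPL15: aaggcattgtgggagtacagCTCTTTCCTT
RPL22: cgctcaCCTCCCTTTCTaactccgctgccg
RPL27A: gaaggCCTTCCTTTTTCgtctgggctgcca
RPL32: ggtgacccttgaCCTCCTgggatcgcatct
RPL37A: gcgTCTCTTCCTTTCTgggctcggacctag
RPS19: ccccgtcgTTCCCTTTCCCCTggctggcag
RPS23: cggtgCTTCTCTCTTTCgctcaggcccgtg
RPL3: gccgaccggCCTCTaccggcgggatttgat
RPLP0: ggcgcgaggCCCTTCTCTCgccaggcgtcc
RPS6: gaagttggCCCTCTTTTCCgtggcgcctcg

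On the forward strand lie the windows of RPL14 (chr3:40457329-40457358), RPL15 (chr3:23917122-23917151), RPL27A (chr11:8682782-8682811), RPL37A (chr2:216498834-216498863) and RPS19 (chr19:41860245-41860274). On the reverse strand lie those of RPL22 (chr1:6199576-6199605), RPL32 (chr3:12840431-12840460), RPS23 (chr5:82278335-82278364), RPL3 (chr22:39319604-39319633), RPLP0 (chr12:120201092-120201121) and RPS6 (chr9:19380217-19380246). Their runs are between 5 bases (RPL3) and 14 bases (RPL14) long and cover the annotated start in 9 of the 11 windows, which were chosen for their longest run. Over all member promoters the longest run covered the start in 39 of 60 (65.0%), with 55.8% in the large and 88.2% in the small subunit, against 10.8% of all promoters. The exceptions among the 11 are RPL15, whose run begins 10 bases from the start, and RPL32, whose run of 6 bases begins 2 bases from it. A run of at least 8 pyrimidines was found in 42 of the 60 member promoters (70.0%), against 12.7% of all 35116 promoters. The median longest run was 11 bases in members and 4 in all promoters. The share with such a run was 65.1% of 43 large subunit promoters and 82.4% of 17 small subunit promoters. The letters CTTTC, on the coding strand of the same 30 bases, were in 43.3% of member promoters and 4.26% of all. In the 300 bases of each promoter, on either strand, CCGGAAG was in 36.7% of member promoters and 10.3% of all, AAGATGGC in 6.67% and 2.89%, and TATAAA in 6.67% and 11.5%. These matches are a description of the letters in the windows.

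Of the 60 accessions, 55 had a row in the table, 34 of the large and 21 of the small subunit. Those not analysed here include RPL9, RPL10, RPL21 and RPL24. The rows did not carry counts evenly. A total of 24 members were listed at 0 in every library, 11 had at most 9 counts, 10 had between 10 and 49, and 10 reached 50 counts in at least 1 library. Those listed at 0 include RPL3 (P39023), a core protein of the large subunit close to the peptidyl transferase centre, RPL5 and RPL11, which with 5S ribosomal RNA form the particle that also binds MDM2, RPLP0 and RPLP2 of the stalk, and RPS2. Since every dividing cell uses these proteins, a listing at 0 does not measure the mRNA. A count of 0 allows up to 3 counts, which is a CPM (count per scaled library size) of 1.95 (0 h), 2.34 (8 h) and 2.11 (24 h). Such limits, like all intervals given here, hold the error of counting alone, because without molecular identifiers reads are not independent molecules.

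Which members carried counts went together with the gene structure in GENCODE v44. For each gene, exon bases were counted that belong to transcripts with the coding region of the reference (MANE) transcript and to no other annotated transcript. The median was 1 such base for the 24 members listed at 0, and 21 of these have at most 30. It was 192 for members with 1 to 9 counts, 1246.5 for those with 10 to 49, and 1650.5 for those with at least 50. The relation has exceptions. RPL14 has 0 unshared bases and 205 counts at 0 h, RPS24 has 0 and 5 counts, and of the 24 listed at 0, RPL11 has the most unshared bases, 410. Across the 55 members, the Spearman correlation of the count at 0 h with the unshared bases was 0.76, and with all exon bases of the same transcripts 0.78. These are correlations across genes of 1 library, and genes are not independent replicates. RPL36AL, chosen here after its values were seen, is a close paralog of the large subunit protein RPL36A with a single annotated transcript. It shares none of its exon bases and had 699, 571 and 672 counts. Other genes outside the members do not follow the relation. RPS27L has 5604 unshared bases and 6, 4 and 5 counts, and EIF4H has 0 and 878, 905 and 898. Members and 5 lists described later hold 172 genes with a row. Over these the correlation was 0.70 with unshared bases and 0.53 with all exon bases. The annotation used for counting is not stated, and its part in the levels was not tested. The levels of members are therefore levels of their rows, and an order of mRNA abundance is not given.

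**Figure D1:**
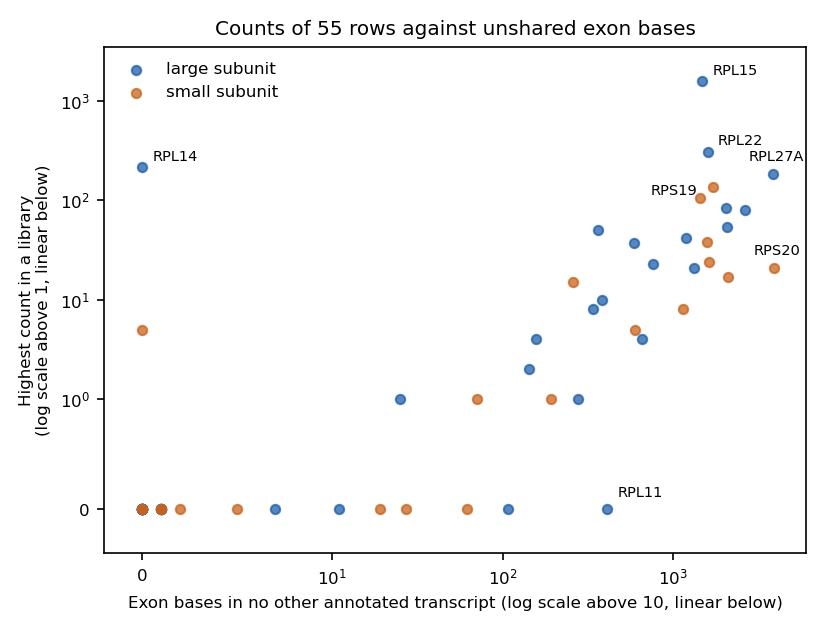
Each point is 1 of the 55 members with a row. The x axis gives the exon bases that no other annotated transcript shares, and the y axis the highest count in a library. The members listed at 0 lie mostly at the left, at 30 bases or fewer, and RPL14, with 0 unshared bases, stands apart.

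Per kilobase of coding length, RPL15 (P61313) had the highest row, with a CPM per kilobase of 1595 (0 h), 1693 (8 h) and 1835.0 (24 h). RPL22 followed with 500.1, 492 and 566.6, and RPL27A with 273, 239 and 269.6. In the small subunit, RPS19 had 154, 208 and 220.1, RPS23 had 118, 140.2 and 174, and RPS20 had 38.3, 28.4 and 39.4, below the 32.0 of RPS15A at 8 h. The order holds for coding length alone. The reference transcript of RPL27A has 4535 bases for 444 coding bases, and that of RPL23A 970 for 468. An order per transcript length was not computed and could differ. The lowest members could not be ranked, since 24 are tied at 0. RPL15 alone held 52.6%, 53.6% and 52.3% of the members' counts. The 10 members with at least 50 counts held 91.8%, 92.5% and 91.1%.

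**Figure D2:**
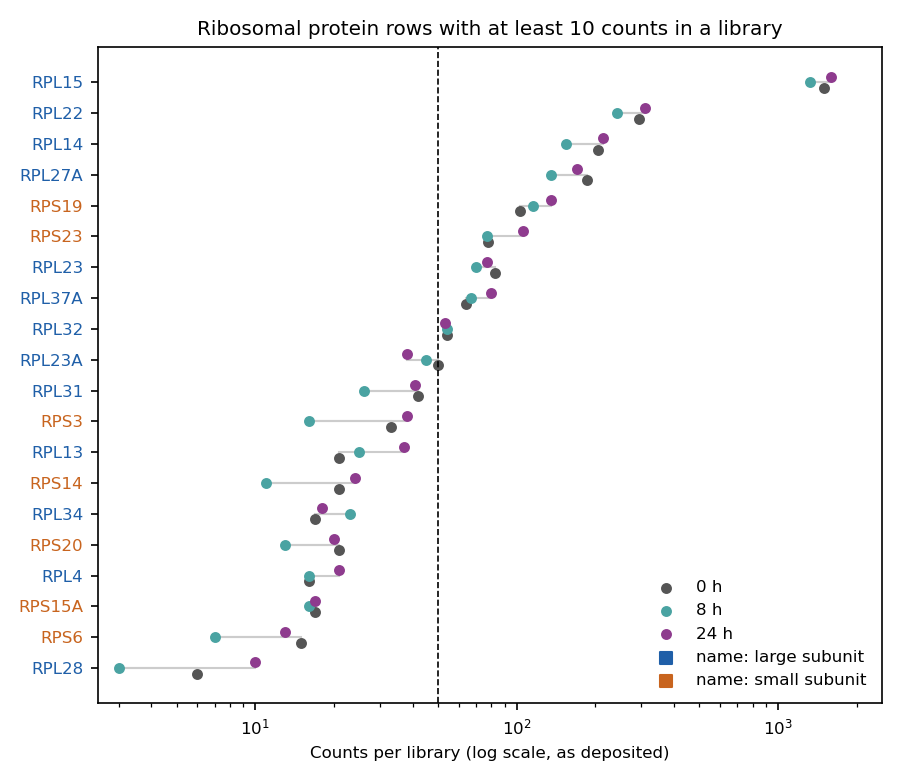
Counts as deposited, on a log scale, of the 20 members with at least 10 counts in a library, with a point for each time point and names coloured by subunit. The dashed line marks 50 counts, and RPL15 lies at 1500, 1327 and 1595 counts at 0 h, 8 h and 24 h, above every other member.

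All members together held 2853 (0 h), 2474 (8 h) and 3051 (24 h) counts. As shares of all counts, with 95% Wilson intervals, these are 0.193% (0.186% to 0.201%), 0.189% (0.181% to 0.196%) and 0.211% (0.204% to 0.219%). The share at 24 h was the highest, and its interval does not overlap those of the other libraries. In these bulk libraries, fewer cells with a given RNA and less RNA per cell cannot be told apart. The large subunit held 2549, 2202 and 2679 counts, or 0.173% (0.166% to 0.180%), 0.168% (0.161% to 0.175%) and 0.186% (0.179% to 0.193%). The small subunit held 304, 272 and 372 counts, or 0.0206% (0.0184% to 0.0230%), 0.0207% (0.0184% to 0.0234%) and 0.0258% (0.0233% to 0.0285%). Without RPL15, chosen for this after its values were seen, the members' share was 0.0917% (0.0869% to 0.0967%), 0.0875% (0.0826% to 0.0927%) and 0.101% (0.0958% to 0.106%), and the intervals at 0 h and 24 h overlap.

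**Figure D3:**
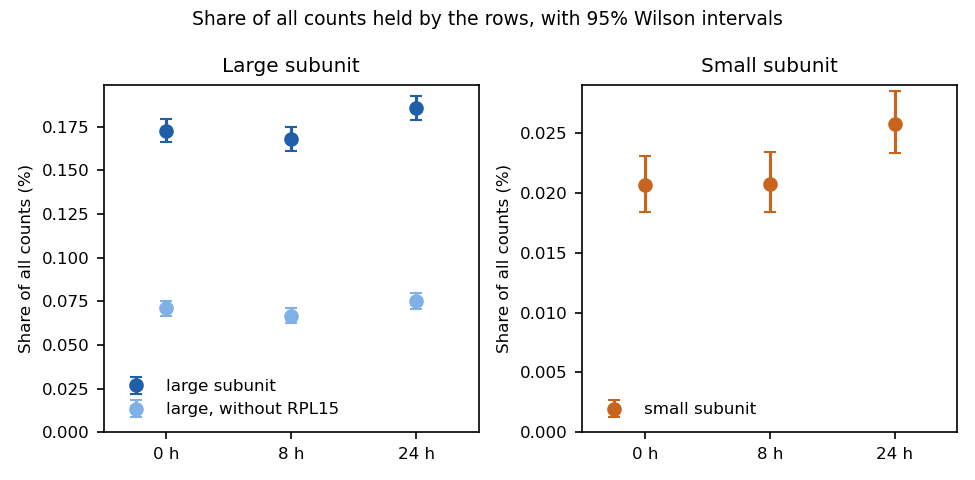
Share of all counts, in percent, of the large subunit with and without RPL15 (left) and of the small subunit (right) in the library of each time point, with 95% Wilson intervals. The large subunit lies at 0.173%, 0.168% and 0.186%, and the small subunit at 0.0206%, 0.0207% and 0.0258%.

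To compare time points, library sizes were scaled by the TMM method, and ratios are given on the log2 scale with exact 95% counting intervals. At 8 h against 0 h, the summed counts of the members differed by 0.06 (-0.02 to 0.14), with the direction turning to -0.03 when libraries were scaled by total counts. At 24 h against 0 h they were higher by 0.21 (0.14 to 0.28), and by 0.13 (0.05 to 0.20) with total counts. At 24 h against 8 h the value was 0.15 (0.08 to 0.23). Both comparisons with 0 h share that library, and both with 24 h share the other. Without RPL15 the summed value at 24 h versus 0 h was 0.22 (0.11 to 0.33), so this member does not set it. For the large subunit the values were 0.05 (-0.03 to 0.13), 0.19 (0.11 to 0.26) and 0.13 (0.05 to 0.22) in the order 8 h against 0 h, 24 h against 0 h and 24 h against 8 h. Without RPL15 the large subunit had 0.16 (0.04 to 0.28) at 24 h versus 0 h. Its shares of all counts without RPL15, 0.0711% (0.0669% to 0.0755%) at 0 h and 0.0751% (0.0707% to 0.0797%) at 24 h, have overlapping intervals. For the small subunit the log2 ratios, in the same order, were 0.10 (-0.14 to 0.34), 0.40 (0.18 to 0.63) and 0.30 (0.07 to 0.53). RPS19, with 103, 116 and 136 counts, and RPS23, with 78, 77 and 106, held most of the 304, 272 and 372 counts. The small subunit values therefore rest mainly on these 2 rows, and a sum without them was not computed. The difference between the subunits was not tested. Mitochondrially encoded transcripts differed more between the libraries, with 2578, 225 and 1274 counts, and total counts without them gave -0.04, 0.13 and 0.16 for the members.

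Single members were compared where at least 50 counts were reached in a library, which left 10 of 55, 8 of the large and 2 of the small subunit. The remaining 45 are given by their counts. Log2 fold changes of single features were taken with a prior count of 2, and a feature was called where it passed 1.5-fold. At 8 h against 0 h, 0 of the 10 members were called in either direction, where 7.18% of the 4218 features tested were called higher and 6.83% lower. For 24 h against 0 h the members called were again 0, beside 9.39% higher and 8.53% lower. In the comparison of 24 h with 8 h they were 0, beside 2.3% and 1.66%. By the second rule, a counting interval wholly on 1 side of 0, 1 member was above 0 at 8 h versus 0 h (20.2% of all features) and 0 were below (14.6%). This member, RPS19, no longer passed with libraries scaled by total counts. For 24 h against 0 h it was 3 members above (19.9%) and 0 below (21.2%), and at 24 h versus 8 h 2 above (7.18%) and 0 below (10.5%). With 10 members, a share near these backgrounds cannot be told from them.

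The median log2 fold change of the 8 large subunit members was 0.05 at 8 h versus 0 h, 0.13 at 24 h versus 0 h and 0.11 at 24 h versus 8 h, beside 0.02, -0.02 and -0.03 over all features tested. With total counts the large subunit medians at 8 h and 24 h versus 0 h became -0.04 and 0.05, beside -0.07 and -0.10 over all features. The 2 small subunit members had medians of 0.33, 0.52 and 0.19. Over the 7 small subunit members with at least 10 counts, a limit set after the values were seen, the median at 8 h versus 0 h was -0.38, so its direction rests on which members are taken. Among the 10 members the SD was 0.20 at 8 h versus 0 h, 0.25 at 24 h versus 0 h and 0.21 at 24 h versus 8 h, against 0.46, 0.51 and 0.32 across all features. The SD across all features takes in extreme rows, as low as -7.00 at 8 h versus 0 h and as high as 5.95 at 24 h versus 8 h. Depth was not matched either, so these SDs do not show that the members vary less.

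Of the large subunit, RPL15, a protein needed for the maturation of the large subunit, had 1500, 1327 and 1595 counts. Its log2 ratio was 0.20 (0.10 to 0.30) at 24 h versus 0 h and 0.12 (0.01 to 0.22) at 24 h versus 8 h. RPL22 (P35268), an RNA-binding protein that is dispensable for translation in general, had 295, 242 and 309 counts, with 0.18 (-0.05 to 0.42) at 24 h versus 0 h. RPL14 (P50914) had 205, 155 and 215 counts, and its value at 24 h versus 8 h was 0.32 (0.02 to 0.63), the highest of the 10 members in that comparison. These 3 members had their lowest count at 8 h, in the library with the smallest total.

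RPL27A had 186, 136 and 170 counts, and its log2 fold change at 8 h versus 0 h, -0.19, was the lowest of the 10. RPL37A, with 64, 67 and 80 counts, had 0.32 at 8 h and 0.42 at 24 h versus 0 h. RPL23A, which lies at the exit of the peptide tunnel, had 50, 45 and 38 counts and the lowest values of the 10 at 24 h, -0.27 against 0 h and -0.38 against 8 h. The counting intervals of these members, RPL23 and RPL32 included, held 0 in every comparison. RPL23 had 83, 70 and 77 counts and RPL32 54, 54 and 53. At 24 h versus 0 h the ratio was 0.01 (-0.46 to 0.47) for RPL23 and 0.09 (-0.49 to 0.66) for RPL32, so no difference was detected.

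Other members of the large subunit are named for their role. RPL4, which lines the peptide exit tunnel, had 16, 16 and 21 counts, and its intervals held 0. RPL38, known for its part in the translation of Hox mRNAs in the mouse embryo, had 2, 7 and 8 counts, a ratio at 24 h versus 0 h of 2.11 with an interval of -0.21 to 5.39. Of the stalk proteins, which recruit the elongation factors, RPLP1 had 4, 2 and 4 counts. RPL13 had 21, 25 and 37 counts, with a ratio of 0.93 (0.12 to 1.78) at 24 h versus 0 h. It had under 50 counts and was singled out after its values were seen.

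Of the small subunit, RPS19 (P39019), the protein most often mutated in Diamond-Blackfan anemia, had 103, 116 and 136 counts. Its log2 ratio was 0.43 (0.04 to 0.83) at 8 h and 0.51 (0.13 to 0.90) at 24 h versus 0 h, and 0.08 (-0.29 to 0.45) between 8 h and 24 h. It was the highest of the 10 members at 8 h versus 0 h, where total counts gave a ratio of 0.34 (-0.05 to 0.74). RPS23 (P62266), a protein of the decoding centre, had 78, 77 and 106 counts, with 0.56 (0.12 to 0.997) at 24 h versus 0 h. Its log2 fold change with the prior, 0.54, was the highest of the 10 in that comparison.

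The 5 small subunit members with 10 to 49 counts had their lowest count at 8 h, in the smallest library. RPS3, which lines the mRNA entry channel, had 33, 16 and 38 counts, and its ratio at 24 h versus 8 h was 1.10 (0.22 to 2.04). Of these 5 members it alone had an interval off 0. It had under 50 counts, and the share of all features with such an interval at its depth is not given here. RPS14, whose gene lies in the region lost in the 5q- syndrome, had 21, 11 and 24 counts, and RPS6, the substrate of S6 kinase, had 15, 7 and 13. Their intervals held 0 in every comparison. RPS24 had 5 counts in each library. RPSA had 0, 1 and 0 counts, and RPS2 was listed at 0.

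**Figure D4:**
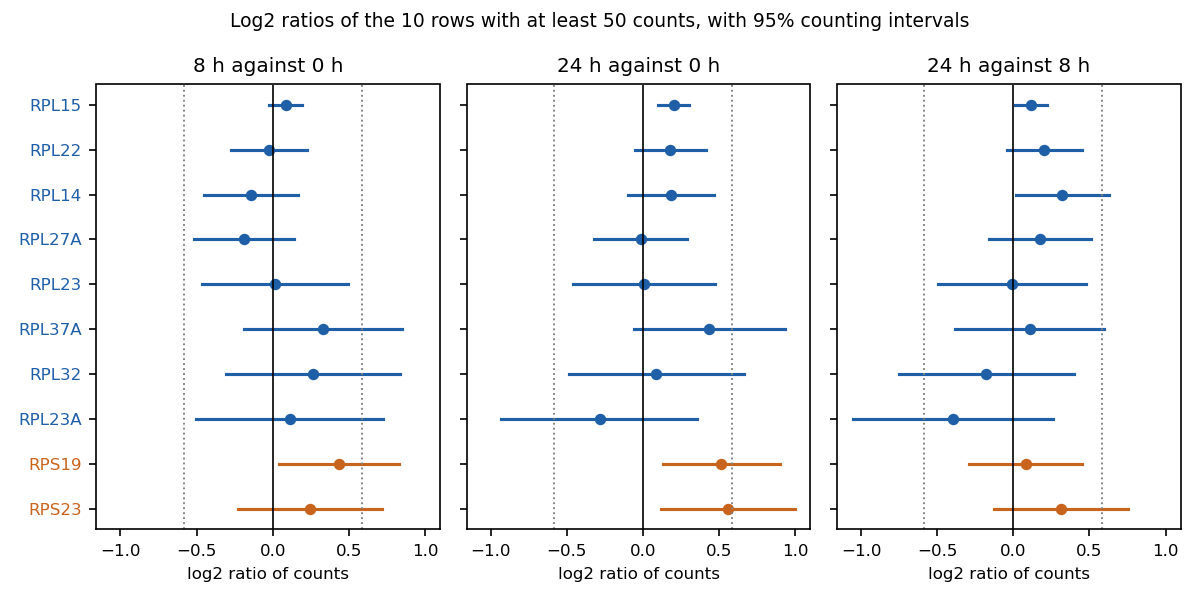
Log2 ratios of counts, without a prior count, of the 10 members with at least 50 counts in a library, with exact 95% counting intervals, for 3 comparisons of 1 library with another. The dotted lines mark 1.5-fold, and the intervals of RPL15, RPS19 and RPS23 lie above 0 at 24 h versus 0 h, when libraries are scaled by TMM.

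Reads of the same genes also stand under other identifiers. A total of 250 transcripts of the members' genes have rows of their own, 189 with a retained intron and 61 with no defined coding region, and 115 of these rows had a count. Their exons overlap those of the coding transcripts, so reads of both cannot be told apart. Together they held 942, 671 and 854 counts. The log2 ratio was -0.23 (-0.37 to -0.08) at 8 h versus 0 h, -0.03 (-0.16 to 0.11) at 24 h versus 0 h and 0.20 (0.05 to 0.35) at 24 h versus 8 h. The large subunit had -0.23 (-0.41 to -0.06) and the small subunit -0.21 (-0.46 to 0.04) at 8 h, so the latter interval holds 0. Retained-intron transcripts of all other genes had -0.18 (-0.20 to -0.16) in the same comparison, and those of the members' genes -0.26 (-0.42 to -0.10), so the intervals overlap. The members' transcripts with no defined coding region had -0.08 (-0.43 to 0.27) there, an interval that holds 0, beside -0.02 (-0.06 to 0.01) for those of other genes.

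By gene, 34 of 59 had at least 10 such counts in a library, and 25 of these were lower and 9 higher at 8 h than at 0 h, with a median of -0.26. By row, 26 of 35 retained-intron transcripts of the members' genes lay below 0, beside 664 of 1045 of other genes, whose median was -0.20. After 24 h, 20 genes were higher and 14 lower than at 0 h, while by row 16 lay above 0 and 25 below, so the direction depends on the unit counted. Of the retained-intron rows, 13 of 35 lay above 0 then, beside 425 of 1045 of other genes, a share near the background. RPLP0, whose protein row is listed at 0, was the only 1 of the 34 genes with an interval off 0 at 8 h versus 0 h. Of all features tested, the intervals of 14.6% lay below 0 and of 20.2% above. Those features reached 50 counts, where the 34 genes needed 10, so these shares are of deeper rows. RPLP0 had 32, 13 and 23 counts over 11 such transcripts, a log2 fold change of -0.94 with an interval of the ratio from -2.09 to -0.07. Of these transcripts, 1 had 13, 0 and 3 counts and another 18, 10 and 16. The value therefore rests largely on 1 row with few counts and does not show a fall across the transcripts. RPL5 had 59, 36 and 40 and RPLP2 had 29, 14 and 18, with intervals that held 0 at 8 h versus 0 h. The members listed at 0 carried 446, 296 and 377 counts under such transcripts, and 22 of these 24 had at least 1.

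Ribosomal proteins have many processed pseudogenes, copies of their mRNAs inserted in the genome, and 1262 rows belong to those of the members. Of these, 383 had a count and 41 had at least 10. The transcript of the 41 was 98.3% identical to the mRNA of its parent in the median, 70.1% at the lowest and 99.8% at the highest, with the shorter sequence aligned in full. How reads shared by such copies were counted is not stated, so pseudogene and parent are uncertain. Their counts summed to 1245, 1379 and 1523, or 0.0844%, 0.105% and 0.105% of all counts. The log2 ratio was 0.41 (0.30 to 0.52) at 8 h and 0.40 (0.30 to 0.51) at 24 h versus 0 h, and -0.01 (-0.11 to 0.10) between 8 h and 24 h. The pseudogenes of further cytoplasmic ribosomal proteins, outside the members, had 443, 510 and 584 counts, with 0.47 (0.28 to 0.65) and 0.51 (0.33 to 0.69), so the values are not particular to the members. Processed pseudogenes of genes other than ribosomal proteins had 0.16 (0.11 to 0.21) at 8 h and 0.22 (0.17 to 0.26) at 24 h versus 0 h.

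The pseudogenes of large subunit members had 0.38 (0.23 to 0.53) and those of small subunit members 0.45 (0.28 to 0.62) at 8 h versus 0 h. Of the 30 parents with at least 10 pseudogene counts, 26 had a value above 0 at 8 h and 25 at 24 h versus 0 h. By row, 28 of 41 lay above 0 at 8 h and 31 of 41 at 24 h, beside 117 and 129 of 209 for genes other than ribosomal proteins. RPS2, listed at 0 under its accession, had the most pseudogene counts, 219, 275 and 277 over 26 rows, a ratio of 0.59 (0.33 to 0.85) at 8 h and 0.45 (0.19 to 0.71) at 24 h versus 0 h. RPL3, also listed at 0, had 47, 67 and 59. The pseudogenes of the 24 members listed at 0 held 738, 833 and 912 counts, those of RPS2 included.

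The other genes of the translation machinery give the setting. Scaling by total counts lowers every value against 0 h, so medians close to 0 in these lists can change sign with it. Of 23 further cytoplasmic ribosomal proteins and close paralogs, 21 had a row, 8 were listed at 0 and 3 reached 50 counts, and the medians were -0.03 (8 h) and 0.06 (24 h) against 0 h. RPL37 was the lowest of these at 8 h (-0.13) and the highest at 24 h versus 0 h (0.37), with 244, 186 and 293 counts. RPL7L1 was the lowest at 24 h versus 0 h (-0.05), with 954, 788 and 850. None was called past 1.5-fold in the 3 comparisons.

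Of 14 elongation factors and other genes with TOP mRNAs, 4 were tested, with medians of -0.04 (8 h) and 0.03 (24 h) against 0 h. Of these 0 were called higher, and 1, NAP1L1, was called lower at 8 h versus 0 h, where 6.83% of all features were. The summed counts of the list had a log2 ratio of 0.31 in both comparisons with 0 h, and EEF2 held 4348 of the 5565 counts at 0 h. EEF2, the factor that moves the ribosome along the mRNA, had 4348, 4732 and 5123 counts, and was higher by 0.38 (0.33 to 0.44) at 8 h and by 0.35 (0.29 to 0.41) at 24 h versus 0 h. NAP1L1, a histone chaperone, had 110, 47 and 73 counts, with -0.94 and -0.47. The other tested genes of this list were HNRNPA1, with -0.20 and -0.26, and EIF4B, with 0.13 and 0.31. PABPC1, the poly(A)-binding protein, was listed at 0, and EEF1A1 was not analysed here. Of 26 initiation factors, 7 were tested and had medians of -0.02 and -0.08. EIF4H was the highest at 8 h (0.31) and at 24 h (0.15) against 0 h, EIF5 the lowest at 8 h (-0.31), and EIF1AX was called lower at 24 h (-0.60), where 8.53% of all features were.

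Of 23 nucleolar factors of ribosome assembly with MYC, 10 were tested, with medians against 0 h of -0.20 (8 h) and -0.22 (24 h). At 8 h against 0 h, 8 of the 10 lay below 0, beside 2000 of all 4218 features, and 2 were called lower, beside 6.83% of all features, GAR1 (-0.96; 58, 24 and 35 counts) and NCL, or nucleolin (-0.66; 77, 40 and 58 counts). After 24 h, DKC1 (-0.71) and GAR1 (-0.59) were called lower, where 8.53% of all features were, the latter with an interval that held 0 (-1.26 to 0.01). NPM1 was the highest at 8 h versus 0 h (0.23), with 166, 163 and 157 counts, and POLR1A at 24 h (0.05). MYC was listed at 0, 0 and 2 counts. Of 41 mitochondrial ribosomal proteins, 8 were tested, with medians of 0.06 and 0.03. MRPS30 was called higher at 24 h versus 0 h (0.82), where 9.39% of all features were, and was the highest at 8 h (0.51), MRPL19 was the lowest at 8 h (-0.36), and MRPS35 at 24 h (-0.52).

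**Figure D5:**
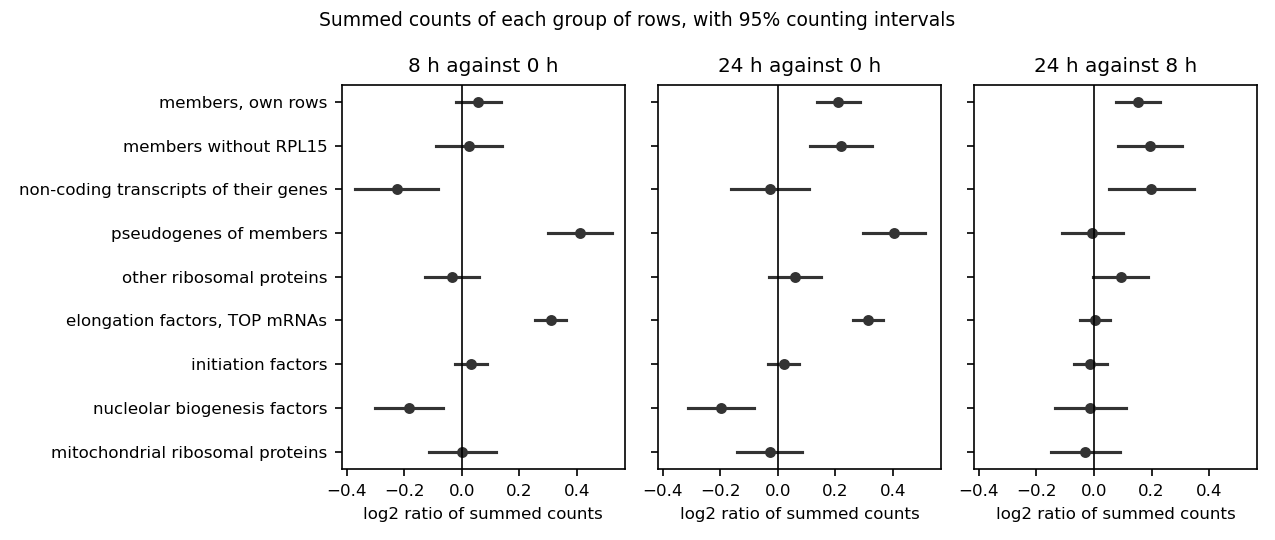
Log2 ratios of the summed counts of the members, of transcripts with their own identifiers from the members' genes, of the members' pseudogenes and of 5 related lists, with exact 95% counting intervals, for 3 comparisons of 1 library with another. At 24 h against 0 h the members lie at 0.21 and their pseudogenes at 0.40, and the nucleolar factors at -0.20.

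The label of the cells was checked against defining markers. Of 11 myeloid markers, 9 had a count, and their sums were 4496, 4690 and 5770. ELANE, the most counted of them, had 3037, 3180 and 3000 counts, PTPRC 617, 522 and 521, LYZ 655, 747 and 1773, ITGAM 87, 120 and 339 and SPI1 69, 87 and 102. CD14 had 0, 5 and 6 counts, and CD33 and CSF1R were listed at 0. CD3E of T cells, HBB of erythroid cells, KRT8 of epithelium and ALB of hepatocytes were listed at 0 in every library, and COL1A1 of fibroblasts had 0, 4 and 2 counts. Since a listing at 0 does not measure the mRNA in this table, these do not show that other cells are absent, and only the myeloid markers with counts bear on the label. The myeloid markers LYZ and ITGAM moved with the time of treatment, by log2 ratios of 1.55 (1.42 to 1.68) and 2.08 (1.73 to 2.43) at 24 h versus 0 h, and their part in the values of the ribosomal proteins was not tested.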

How the data were processed

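THP-1 was profiled by RNA-seq with 1 library for each of 0 h, 8 h and 24 h. The table deposited by the authors holds raw read counts as whole numbers, with reads mapped to hg38 with the Seq2science pipeline (fastp and STAR are named in the submitters' processing notes). The counting tool, annotation, strand setting and treatment of shared reads are not given in the sources used here. Samples were grouped by their labels, and count columns matched by name.

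The members and lists were chosen with earlier results of these data known. Gene symbols of accessions are UniProt's, from general knowledge, since the file does not pair them. Transcript identifiers were matched to GENCODE v44 (GRCh38) without their version. Pseudogenes were taken by name, as the symbol of a member, P and a number.

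TMM library sizes (edgeR 4.0.16, R 4.3.3) were taken over features reaching 10 counts in any library, and 4218 features reaching 50 were tested. Log2 fold changes used a prior count of 2, and calls a fold of 1.5. Intervals of ratios are Clopper-Pearson, without a prior, and those of shares are Wilson, at 95%. With 1 library per time point there is no residual spread, so no p-value was computed. The functions were first run on simulated counts with known folds. Python (3.11.15) was used elsewhere: pandas (2.3.3), numpy (2.4.6), statsmodels (0.14.6), scipy (1.17.1), matplotlib (3.10.9). Alternatives were DESeq2 1.42.0 size factors, total counts with and without mitochondrially encoded transcripts or members, other folds, prior counts and count limits.

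Named were, in each comparison, the tested members with the 3 highest and 3 lowest values. Also named were the 3 members of each subunit with the most counts per kilobase of coding length over the libraries together, and members with known roles. Of each list, the highest and lowest in the comparisons with 0 h were named. A few members and 1 marker are not reported here by name.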

Additional observations from a re-analysis of the deposited data

How the results depend on the processing

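No paired analysis was possible because each time point has 1 library and the labels give no replicate numbers. Of 288 values recomputed under other settings, 261 stayed within their interval or near their count. Among them were all 168 of single members, whose intervals are wide. For these, the setting with no prior count is the centre of the interval and could not fall outside it. The subunit medians have no counting interval of their own and were given the width of that of summed counts. The tally is therefore no measure of stability. With total counts RPL15 and RPL23 changed sign at 8 h versus 0 h and RPL23 at 24 h versus 0 h. The interval of RPS19 at 8 h versus 0 h came to hold 0 (-0.05 to 0.74), which left 0 members above 0 there. The 3 and 2 members in the other comparisons stayed above 0. With total counts, with total counts less mitochondrially encoded transcripts and with total counts less the members, the members' summed log2 ratio at 8 h versus 0 h became -0.0346, -0.0368 and -0.0346, turning its sign, and at 24 h versus 0 h 0.13, 0.13 and 0.13, below 0.21. The large subunit median at 8 h versus 0 h became -0.0393, -0.0415 and -0.0393, and at 24 h versus 0 h 0.0511, 0.0499 and 0.0514, below 0.13. The cause of these shifts is the scaling, which moves all features alike. With total counts the median of all features went from 0.02 to -0.07 at 8 h and from -0.02 to -0.10 at 24 h versus 0 h. A sign turned in this way is therefore not particular to the members. With members of at least 10 counts, added after the values were seen, the small subunit median at 8 h versus 0 h turned to -0.38, since 7 members enter in place of 2. Without RPL15, also added later, the shares were 0.0917%, 0.0875% and 0.101%.

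In place of 0 members called, a lower fold for a call gave 1 higher at 8 h (19.1% of all features) and 3 higher at 24 h (20.1%) versus 0 h, and 1 lower at 24 h versus 8 h (10%). With at least 10 counts, of 20 members 1 was higher (12.4% of all features) and 3 lower (15%) at 8 h versus 0 h, 2 higher at 24 h versus 0 h (15.3%) and 4 higher at 24 h versus 8 h (10.7%). With no filter, of 55 members 4 were higher (5.5%) and 3 lower (3.3%) at 8 h versus 0 h, 5 higher (6.49%) and 1 lower (3.04%) at 24 h versus 0 h, and 5 higher (2.98%) and 2 lower (4.96%) at 24 h versus 8 h. A feature at 0 in every library cannot be called. Of the 213543 features 9609 reach 10 counts in a library, and of the 55 members 20 do. The shares of all features with no filter are therefore not a like background for the members. Depth limits these counts, since the rows entering hold few reads. Time of treatment cannot be told apart from culture, handling and library preparation, since each library is a group of its own. With 24 members listed at 0 the sums describe a few rows, RPL15 first. RNA was measured, and translation and ribosome number were not.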
